A study of Rattus norvegicus with 18 samples.

Results

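Which mRNAs of the newborn rat lung were over- or under-represented on large polysomes was read from 6 of the 18 arrays in the series, 3 of polysomal RNA and 3 of total RNA at P1. The arrays were chosen by their labels alone. P1 lungs came from Wistar rats that had been born vaginally and were taken 5 h after birth. Each P1 lysate came from its own litter and gave both RNAs: an aliquot went to total RNA, and the rest was run on a sucrose gradient, from which fractions with more than 7 ribosomes per mRNA were kept as large polysomes. The other 12 arrays hold the same pair of RNAs from fetuses of fetal day 19 (FD19) and fetal day 22 (FD22), again from 3 litters a stage. Fetuses were delivered by Caesarean section, so stage and mode of delivery cannot be told apart. No animal carried a transgene or received a drug per the labels, and how many pups a lysate held is not given in the sources used here.

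An mRNA under translation usually carries several ribosomes, and a gradient separates such polysomes by weight from single ribosomes and from mRNA without ribosomes. The level of an mRNA on large polysomes relative to its level in total RNA is therefore widely used as a gauge of how heavily it is translated. A short coding sequence has room for few ribosomes, so an mRNA for a small protein can be translated and yet be scarce among large polysomes. In the hours after birth the lung clears its liquid, spreads surfactant and meets a higher oxygen tension.

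Levels are probe set signals on a linear scale, and the 3 values given for a group are those of lysates 1, 2 and 3 in that order. A log2 ratio is the mean over the 3 lysates of log2(signal + 5.6) in polysomal RNA minus the same in total RNA, so 1 stands for 2-fold higher on polysomes and -1 for 2-fold lower. Its SE and its p-value, adjusted over 21655 probe sets, come from limma. The trimmed mean signal was 150.03 to 150.04 on every array, so a ratio is relative to the average transcript and says nothing of the total amount of RNA on polysomes. Signals of different genes are not compared. Whole lung was measured: in a level, fewer cells of a type and less RNA per cell cannot be told apart.

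The P1 arrays had median signals of 51.6 to 66.1. The total RNA carried the lung's own markers: Sftpc, a surfactant protein of alveolar type II cells, gave signals of 5301 to 7433, Ager of type I cells 1593 to 1659, Scgb1a1 of club cells 5002 to 5988 and Pecam1 of endothelium 708.2 to 785.7. Markers of other tissues were present too. The 14 measured heart and skeletal muscle genes summed to 1342 to 2582 in total RNA and 1566 to 3480 in polysomal RNA, and 10 liver, thymus and neural genes summed to 442.7 to 530.6 and 283.6 to 413.3. Their part in the results was not tested. Of each stage and RNA, the array numbered 1 was the dimmest by its median (6 of 6 groups), and these arrays lay apart on principal component 3 (10.14% of the variance). What sets them apart is not recorded. Counts from the arrays numbered 2 and 3 only are given with the overall counts and with some of the lists.

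At P1, 2555 probe sets were higher on polysomes (11.8% of those tested) and 3504 were lower (16.2%), 28% in all. More than 2-fold, 208 were higher (0.961%) and 845 lower (3.9%), so the large ratios lay mostly on the low side. The 3 lysates had 1 direction in 6015 of the 6059 probe sets called, and the polysomal and total arrays did not overlap in 5118 of them, against 7749 (35.8%) of all probe sets tested. Ratios of single lysates correlated with r = 0.588 to 0.591 across probe sets, which are not independent of each other. With 1 probe set for each of 11583 genes, 1946 genes were higher (16.8%) and 1482 lower (12.8%), the median log2 ratio was 0.01, and the 10th and 90th percentiles were -0.58 and 0.57.

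The counts depended on the lysates and on scaling. Without lysate 2, 1617 probe sets were higher, and without lysate 3, 1549. Lower probe sets numbered 2151 without lysate 1, 2198 without lysate 2 and 2157 without lysate 3. Without the block that pairs the RNAs of a lysate, 2243 were lower, and with the arrays numbered 2 and 3 only, 2300. Higher probe sets made up 42.2% of the calls, but 52.5% after quantile normalization and 54.5% after centring each array on its median, which moved the median of all ratios by 0.103 and 0.076. The balance of higher and lower genes was thus not fixed by these arrays, and the lists that follow are read against the gene shares of 16.8% and 12.8%.

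mRNAs of the cytosolic ribosome were lower on large polysomes at P1. Of 44 measured ribosomal protein genes, 40 were lower (90.9%, against 12.8% of all genes) and 1 was higher, with a median log2 ratio of -0.80. The shift covered both subunits: 27 of 29 proteins of the large subunit were lower and 14 of 15 of the small one, which here adds Rack1 of the elongation factor list. No gene of either subunit was higher by limma, also at an unadjusted p under 0.05 (0 and 0). After quantile normalization 29 of the 44 were lower and the median was -0.60, and with the arrays numbered 2 and 3 only, 34 were lower and 0 higher.

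These mRNAs are known for a stretch of C and T letters at the start of the transcript, the terminal oligopyrimidine tract, through which their translation is switched on and off together. The 30 bases around the RefSeq start (10 before it and 20 from it, build GRCr8, gene strand) are shown for 2 sets. The ribosomal protein genes are those with the lowest ratios among genes with a C or T run in this window. Rpl37a (-1.45), Rpl41 (-1.40) and Rps16 (-1.27) are thus not shown. The 3 proteasome genes are those with the highest ratios, picked without regard to a run. The sets were picked differently, so they are examples and no comparison. In Rpl39 the run lies at the far end of the window, not at the start. Capitals mark the longest run of at least 8 letters that are C or T.
Rps28: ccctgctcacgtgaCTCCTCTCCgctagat
Rps15: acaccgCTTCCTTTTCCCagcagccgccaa
Rplp0: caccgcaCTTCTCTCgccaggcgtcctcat
Rpl35: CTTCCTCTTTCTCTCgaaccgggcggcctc
Rpl22: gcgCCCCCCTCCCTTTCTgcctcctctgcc
Rpl39: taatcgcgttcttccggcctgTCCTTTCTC
Psmb2: ctggtgaggccgcgtacccgggaagtcccc
Psma2: gactttccgggtaaagatggcagaacgcgg
Psmc5: ggcggtccctgccgaaggagggaagatggc
The windows lie on the minus strand at chr7:15311314-15311343 (Rps28), chr7:10068096-10068125 (Rps15), chr12:46718371-46718400 (Rplp0), chr3:43165902-43165931 (Rpl35), chrX:121195877-121195906 (Rpl39) and chr17:55260422-55260451 (Psma2). Those on the plus strand are chr5:168117951-168117980 (Rpl22), chr5:144255048-144255077 (Psmb2) and chr10:91687543-91687572 (Psmc5).

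Within 20 bases on either side of the start, on the gene's strand, 23 of 38 ribosomal protein genes with a promoter sequence held a run of 8 or more C or T letters (60.5%), against 14.8% of the 9588 tested genes with a sequence and 15.5% of all 27457 promoters in the RefSeq table. All 23 with a run were lower on polysomes, and 11 of the 15 without one were. The rest of the 15 were Rpl18, Rpl7l1, Rps27l and Rpl39l1, which are homologues of ribosomal proteins except for Rpl18. The contrast between the 23 and the 15 thus rests mostly on homologues. Their median log2 ratios were -0.84 and -0.76. Outside the ribosomal protein genes, 13.8% of genes with a run were lower and 12.2% of those without. Of 33 proteasome genes with a sequence, 4 held a run. A run within this window is a description of the letters there, not of a tested element.

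Rps28, a small-subunit protein, had signals of 3771, 4791 and 5255 in total RNA and 1417, 1442 and 1268 in polysomal RNA. The groups lay far apart in every lysate, and the log2 ratio was -1.73 (SE 0.16, adjusted p = 9.58e-06). Rps15 gave 3300, 3848 and 4613 against 1365, 1742 and 1124, a log2 ratio of -1.48 (SE 0.19, adjusted p = 0.000116). Rplp0, which forms the stalk of the large subunit, gave 3702, 3810 and 4300 against 1274, 1502 and 1479 (log2 ratio -1.47, SE 0.10, adjusted p = 7.27e-07). The depth of the shift varied along the list. Rps6, the substrate of S6 kinase, had 4414, 5122 and 5654 in total RNA and 3265, 4974 and 3872 in polysomal RNA. Its groups overlapped, and the log2 ratio of -0.34 (SE 0.11, adjusted p = 0.0392) lost its call in 9 of the alternatives tried. Rpl7l1, a homologue of a ribosomal protein with a role in ribosome assembly, was the gene that was higher, with 520.2, 527.5 and 486.4 in total and 703.5, 694.9 and 614.1 in polysomal RNA (log2 ratio 0.39, SE 0.10, adjusted p = 0.00978). Its call was lost without lysate 1, without lysate 2 and with the arrays numbered 2 and 3 only.

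The same mRNAs were low on polysomes before birth. The median log2 ratio of the 44 genes was -1.30 at FD22 and -1.0 at FD19, with 42 and 41 genes lower. For Rplp0 the ratios were -1.96 at FD22, -1.21 at FD19 and -1.47 at P1. The difference between stages was not tested for the list.

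Elongation factors and other mRNAs known to carry such a tract were also lower. Of 15 measured, 11 were lower (73.3%), 0 were higher (0 at an unadjusted limma p under 0.05), and the median was -0.53. Without lysate 3, 7 were lower. Eef1g, a subunit of elongation factor 1, had 2881, 2436 and 2735 in total RNA and 1473, 1420 and 1378 in polysomal RNA, with no overlap (log2 ratio -0.91, SE 0.10, adjusted p = 4.65e-05). Eef1b2, another subunit, was at -0.25 (adjusted p = 0.0944) and did not pass.

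The factors that start translation had calls in both directions, at shares not far from those of all genes. Of 49 measured initiation factors and their regulators, 11 were higher (22.4%, against 16.8%) and 8 lower (16.3%, against 12.8%). Eif3a, the largest subunit of eIF3, had 1236, 1350 and 1312 in total RNA and 755.5, 520.8 and 531.5 on polysomes (log2 ratio -1.12, SE 0.13, adjusted p = 4.73e-05). Eif4ebp2, an inhibitor of the cap-binding protein, had a log2 ratio of -1.13 (SE 0.15, adjusted p = 0.000122). In contrast, 4 of 9 subunits of eIF2 and of its exchange factor eIF2B were higher and 0 lower (0 at an unadjusted p under 0.05). Among them Eif2b1 had 315.7, 287.0 and 290.2 in total and 508.0, 461.8 and 430.5 in polysomal RNA (log2 ratio 0.64, SE 0.12, adjusted p = 0.00199). Eif4a3, a helicase of the exon junction complex, was higher as well, at 0.86 (SE 0.12, adjusted p = 0.00025).

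Subunits of the proteasome, the complex that breaks down marked proteins, were higher on polysomes. Of 37 genes measured, 28 were higher (75.7%, against 16.8% of all genes) and 0 were lower (0 at an unadjusted limma p under 0.05), with a median log2 ratio of 0.57. With the arrays numbered 2 and 3 only, 24 were higher. The list was drawn by symbol and holds Psmc3ip (log2 ratio 0.32, not called), which is no proteasome subunit. Of the 20S core, which cuts the proteins, 15 of 16 genes were higher with a median of 0.60. Of the 19S regulator and its assembly factors, 13 of 20 were higher with a median of 0.53.

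Psmb2, a core subunit, had signals of 588.0, 562.1 and 546.5 in total RNA and 1477, 1514 and 1219 in polysomal RNA. Every polysomal value was far above every total value, and the log2 ratio was 1.30 (SE 0.09, adjusted p = 1.63e-06). Psma2, of the core's outer ring, had 764.7, 818.3 and 831.9 against 1638, 1909 and 1693 (log2 ratio 1.11, SE 0.10, adjusted p = 6.03e-06). Psmc5, an ATPase of the regulator, had 272.6, 282.6 and 225.3 against 479.4, 590.1 and 583.3 (log2 ratio 1.07, SE 0.14, adjusted p = 0.000133). Proteasome genes were above the median gene at the earlier stages too, with a median of 0.35 and 19 genes higher at FD22, and 0.34 and 18 at FD19.

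**Figure D1:**
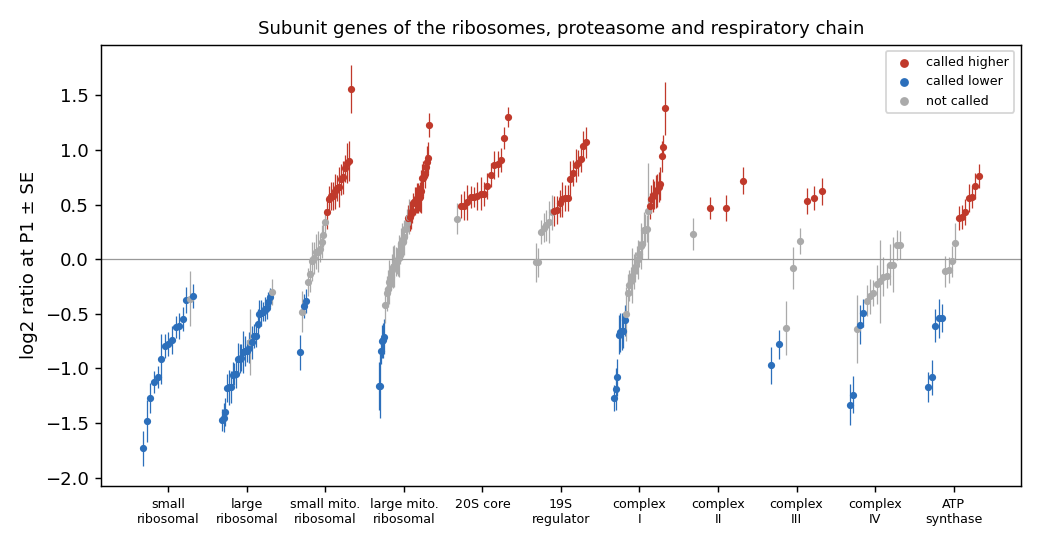
Log2 ratio of polysomal over total RNA at P1 (vertical axis, with limma's SE as bars) for each measured gene of 11 groups of subunits, sorted within each group; colours give the call. The large and small subunit proteins of the cytosolic ribosome all lie below 0 (-1.73 to -0.30), 15 of 16 genes of the 20S core are called higher, and complex I and ATP synthase hold calls in both directions.

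The mitochondrial ribosome, whose proteins are made in the cytosol and imported, did not follow the cytosolic one. Of 73 genes, 32 were higher (43.8%) and 9 lower (12.3%), with a median of 0.22. Mrps31 had 94.2, 89.3 and 69.4 in total RNA and 284.6, 183.6 and 325.8 on polysomes, a log2 ratio of 1.56 (SE 0.22, adjusted p = 0.000196). Mrpl41 had 387.4, 449.0 and 449.0 against 904.7, 1226 and 931.0 (log2 ratio 1.23, SE 0.11, adjusted p = 8.19e-06). At the low end Mrpl54 had 374.3, 372.9 and 422.0 against 179.9, 206.3 and 133.5 (log2 ratio -1.16, SE 0.22, adjusted p = 0.00167), so members of 1 complex lay on both sides.

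Nuclear genes of the respiratory chain were called in both directions. Of 79 nuclear genes of oxidative phosphorylation, 24 were higher and 19 lower. Both shares (30.4% and 24.1%) were above those of all genes. The median was -0.05, and 0.02 after median centring. The 19 lower genes fell to 10 without lysate 3, and the 24 higher ones to 11 without lysate 2. In complex I, drawn by the symbol Nduf, 11 of 35 genes were higher and 8 lower. Ndufs3, a subunit of its catalytic arm, had 270.0, 264.1 and 244.2 in total RNA and 528.3, 633.4 and 460.3 on polysomes (log2 ratio 1.03, SE 0.11, adjusted p = 3.01e-05). Ndufb1, a small accessory subunit of its membrane arm, had 833.0, 969.7 and 1179 against 323.0, 477.3 and 434.3 (log2 ratio -1.27, SE 0.12, adjusted p = 9.01e-06). The groups did not overlap for either gene, and the directions were opposite.

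Of 16 nuclear genes drawn for complex IV by the symbol Cox, none was higher (0 at an unadjusted limma p under 0.05) and 4 were lower. They include Cox6c-ps1, a pseudogene by its symbol, which was not called. Ndufa4, now assigned to complex IV but counted by symbol with complex I, was higher (log2 ratio 0.66, adjusted p = 0.00338). Cox8a, a small subunit, had 2337, 2088 and 2224 in total RNA and 1178, 906.8 and 763.6 on polysomes (log2 ratio -1.24, SE 0.17, adjusted p = 0.000149). In complex II, 3 of 4 genes were higher. Sdhb, its iron-sulphur subunit, had 889.9, 797.8 and 831.1 against 1200, 1131 and 1159 (log2 ratio 0.47, SE 0.10, adjusted p = 0.00336). Protein lengths were not used here.

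Some RNAs that encode no protein were among the lowest. Of 108 genes that RefSeq types as lncRNA, 40 were lower (37%) and 0 higher (1 at an unadjusted limma p under 0.05), with a median of -0.52. Among those with a mean signal of at least 100 in the higher group, 21 of 31 were lower with a median of -0.85. H19, an imprinted noncoding RNA abundant in fetal tissue, had signals of 2308, 2133 and 2130 in total RNA and 376.2, 323.6 and 304.7 in polysomal RNA. The ratio was nearly equal in the 3 lysates (-2.60, -2.70 and -2.78), with a mean of -2.69 (SE 0.16, adjusted p = 4.96e-07). Snhg11, a host of small nucleolar RNAs, had 298.6, 229.8 and 183.3 against 51.0, 25.2 and 16.2 (log2 ratio -2.83, SE 0.24, adjusted p = 6.03e-06, and -3.03 to -2.23 with the other constants tried). Gas5, another such host that also carries an oligopyrimidine start, had 621.7, 758.3 and 863.7 against 188.1, 162.0 and 192.4 (log2 ratio -2.01, SE 0.15, adjusted p = 1.76e-06). Of 11 noncoding RNAs on the list, 7 were lower and 0 higher (0 at an unadjusted p under 0.05).

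Probe sets that the platform annotation ties to no gene shared this direction. Of 5218 such probe sets, 23% were lower and 4.12% higher with a median of -0.27, while of 16084 probe sets tied to 1 gene, 13.7% were lower and 14.2% higher. These unnamed probe sets lay more often in the dim bins of mean signal, and the part of signal in their ratios was not tested. In the brightest of 4 bins, 22.6% of 700 were lower and 12.9% higher, against 15.5% and 26.6% of 4534 probe sets with 1 gene. In the dimmest bin the shares lower were 18.9% and 10.5%.

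COX2, an mRNA of the mitochondrial genome that is translated inside mitochondria, was among the lowest of all. It had 5171, 6451 and 7031 in total RNA and 1194, 1047 and 834.3 in polysomal RNA, a log2 ratio of -2.60 (SE 0.18, adjusted p = 9.43e-07). Its ratio was -2.26 at FD22 and -1.96 at FD19.

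Among genes with a mean signal of at least 100 in the higher group and no overlap, the 12 lowest on polysomes had log2 ratios from -3.09 to -2.10 and were led by Myh1, a skeletal muscle myosin, with 1458, 1015 and 1130 in total RNA and 110.6, 133.4 and 163.8 on polysomes (log2 ratio -3.09, SE 0.25, adjusted p = 3.37e-06). All 5 of its kept probe sets were lower. The probe set named here is of a kind that can bind related transcripts, so its identity is uncertain. Selenow, a small selenoprotein, followed with 581.4, 510.2 and 589.9 against 70.3, 71.3 and 60.9. Its polysomal values lay close together and far below the total ones (log2 ratio -2.95, SE 0.14, adjusted p = 8.26e-08). Beside Snhg11, H19 and COX2, described above, the other low genes were Rnf151 (-2.25), Pla2g1b (-2.23), the noncoding LOC100911177 (-2.19), the ubiquitin ligase Marchf2 (-2.15), the RNA-binding protein Rbm38 (-2.15), the mitochondrial carrier Slc25a39 (-2.13) and Urah (-2.10). Each was also lower at FD22.

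Under the same limits, the 12 highest reached log2 ratios of 1.41 to 2.40. Cryl1, the crystallin lambda protein, which acts as a sugar dehydrogenase, had 15.2, 17.4 and 14.2 in total RNA and 135.6, 118.6 and 74.4 on polysomes (log2 ratio 2.40, SE 0.22, adjusted p = 7.73e-06). Its total signals were below the 40.9 used as the filter, and the ratio was 1.67 to 2.70 with the other constants tried. Ahsa1, a co-chaperone of Hsp90, had 307.5, 380.1 and 312.5 against 905.8, 967.5 and 853.3 (log2 ratio 1.44, SE 0.12, adjusted p = 4.01e-06). Taldo1, transaldolase of the pentose phosphate pathway, had 421.9, 362.9 and 348.0 against 990.1, 1227 and 1048 (log2 ratio 1.51, SE 0.14, adjusted p = 9.32e-06). The rest were the peptidyl-prolyl isomerase Ppic (1.49), Mrps31 (1.56), the RNA methyltransferase Mettl3 (1.56), Fam234a (1.53), Lemd2 of the nuclear envelope (1.53), the growth-arrest gene Gadd45g (1.47), Inka1 (1.47), Ikbip (1.42) and the cysteine desulphurase Nfs1 (1.41). Mettl3 differed between lysates, at 0.40, 1.16 and 3.12.

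**Figure D2:**
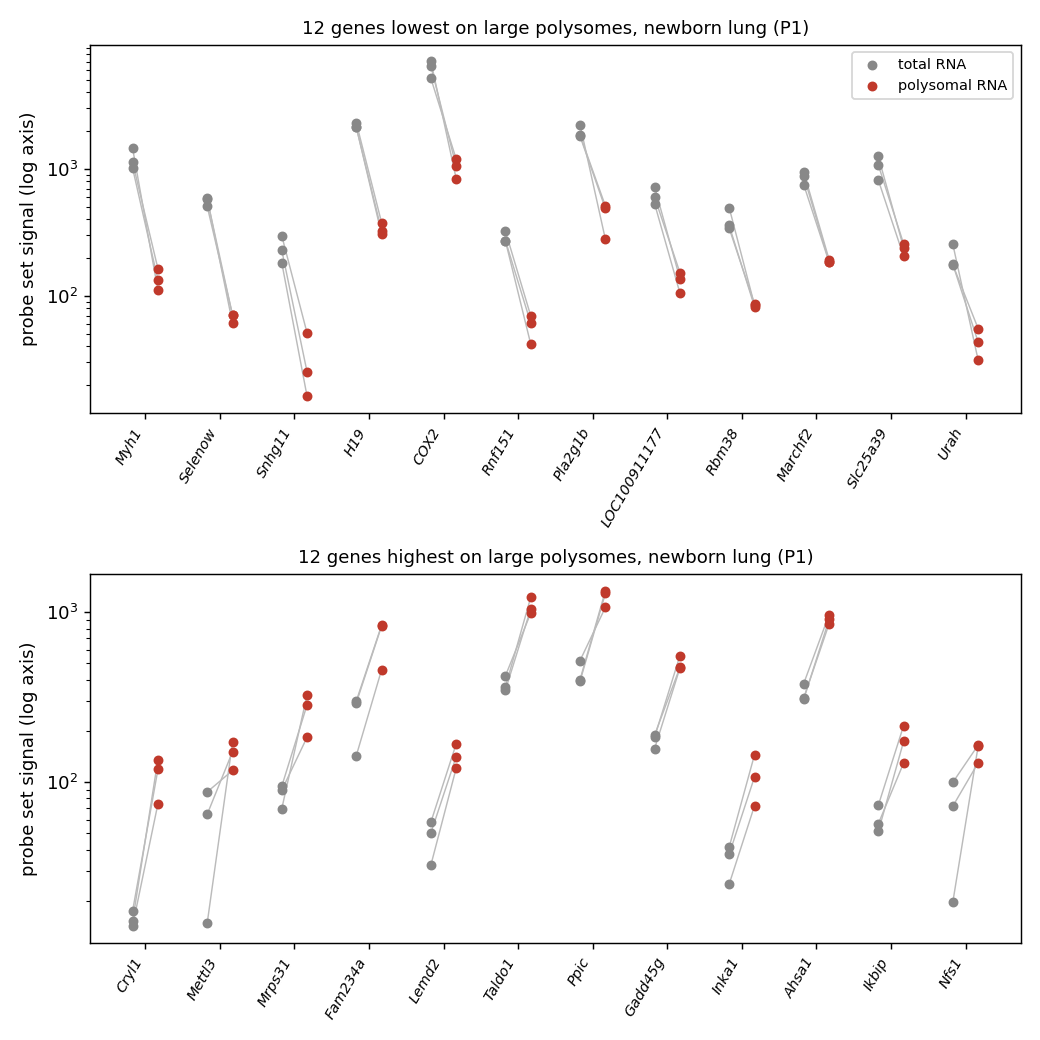
Probe set signal (log axis) of the 12 genes lowest and the 12 highest on large polysomes at P1, among those with a mean signal of at least 100 in the higher group and no overlap; grey points are the 3 total arrays, red points the 3 polysomal arrays, and lines join the RNAs of a lysate. In the upper panel every polysomal value lies below every total value, from Myh1 (log2 ratio -3.09) to Urah (-2.10), and in the lower panel every one lies above, from Cryl1 (2.40) to Nfs1 (1.41).

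mRNAs of red cells were lower on large polysomes. Whole lung contains blood, and of 26 erythroid genes measured, 19 were lower (73.1%) and 0 higher (1 at an unadjusted limma p under 0.05), with a median of -0.92. The genes summed to signals of 19150 to 25065 in total RNA and 12039 to 15364 in polysomal RNA. Alas2, the first enzyme of haem synthesis in red cells, had 2644, 2078 and 2853 in total RNA and 617.6, 635.0 and 797.6 on polysomes (log2 ratio -1.87, SE 0.11, adjusted p = 3.79e-07). Klf1, an erythroid transcription factor, had 76.0, 69.4 and 92.0 against 6.6, 6.2 and 17.5 (log2 ratio -2.50, SE 0.26, adjusted p = 2.19e-05). Its polysomal signals were near the added constant of 5.6 and below the filter of 40.9, and the ratio was -3.0 to -1.54 with the other constants tried. Both genes were separated without overlap in every lysate.

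The globins were not uniform. Of 6 measured, 4 were lower and 0 higher (0 at an unadjusted p under 0.05). Hbg1 had 221.0, 199.8 and 396.1 in total and 74.4, 44.7 and 54.5 in polysomal RNA (log2 ratio -2.09, SE 0.18, adjusted p = 6.31e-06), and Hba-a3, of the alpha family, had 3692, 4539 and 4960 against 1877, 1438 and 1150 (log2 ratio -1.58, SE 0.21, adjusted p = 0.000151). Hbb, of the beta family, overlapped, with 5387, 7618 and 7809 against 4653, 7944 and 6369 (log2 ratio -0.15, SE 0.11, adjusted p = 0.343). Globin probe sets can bind close relatives, so the split between family members is uncertain.

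Other cell types did not share the low ratios. Of 26 leukocyte genes, 8 were higher and 2 lower. The complement subunit C1qc of macrophages had 200.7, 156.8 and 189.2 in total RNA and 318.3, 355.1 and 370.0 on polysomes (log2 ratio 0.92, SE 0.13, adjusted p = 0.000261), and Tyrobp, a small signalling adaptor of the same cells, had 194.5, 160.4 and 185.6 against 83.5, 55.4 and 66.9 (log2 ratio -1.34, SE 0.25, adjusted p = 0.00138). Of 29 endothelial genes, 10 were higher and 4 lower, but 3 and 2 without the lysate block and 4 and 3 with the arrays numbered 2 and 3 only. Icam2, an adhesion protein of endothelium, had 726.1, 673.4 and 649.3 against 1371, 1119 and 1494 (log2 ratio 0.95, SE 0.12, adjusted p = 8.75e-05).

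The surfactant proteins lay near the average transcript. Sftpc had 5301, 7142 and 7433 in total RNA and 3919, 7790 and 5935 on polysomes (log2 ratio -0.21, SE 0.12, adjusted p = 0.212). Sftpb gave 0.24 (adjusted p = 0.152), Sftpa1 0.26 (adjusted p = 0.0671) and Sftpd 0.36 (adjusted p = 0.084), none of which passed. Of 30 type II cell and surfactant genes, 6 were higher (20%, near the 16.8% of all genes) and 1 lower (3.33%, against 12.8%). Without the lysate block 3 were higher. The lower gene was Pla2g1b, a secreted phospholipase, with 1847, 1814 and 2232 in total RNA and 512.1, 488.4 and 280.0 on polysomes (log2 ratio -2.23, SE 0.27, adjusted p = 7.21e-05). Rab27a, which brings secretory granules to the membrane, had 514.8, 477.2 and 515.8 against 921.7, 909.3 and 759.4 (log2 ratio 0.77, SE 0.13, adjusted p = 0.00087).

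On the list for lung liquid and ion transport, 5 of 24 genes were higher (20.8%) and 3 lower (12.5%). These shares were near those of all genes (16.8% and 12.8%). Beside channels and pumps the list holds other genes, such as Hsd11b1 among the higher and Nr3c2 among the lower. The water channel Aqp3 had 145.0, 168.2 and 115.9 in total RNA and 367.6, 314.8 and 388.6 on polysomes (log2 ratio 1.30, SE 0.23, adjusted p = 0.000949). Of the epithelial sodium channel, Scnn1b was lower at -0.65 (SE 0.16, adjusted p = 0.00769), a call lost without lysate 2 and without lysate 3, while Scnn1a was at -0.21 (adjusted p = 0.392) and Scnn1g at 0.37 (adjusted p = 0.155). Hsd11b1, which makes active glucocorticoid, had 893.9, 921.6 and 1023 against 1480, 1798 and 1740 (log2 ratio 0.82, SE 0.10, adjusted p = 5.54e-05).

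Of 38 transcription factors of lung epithelium and mesenchyme, 13 were higher (34.2%) and 1 lower, with 4 lower after quantile normalization. Id3, a target of BMP signalling, had 958.5, 833.9 and 1018 in total RNA and 1805, 2092 and 2031 on polysomes (log2 ratio 1.07, SE 0.11, adjusted p = 2.23e-05). The lower factor was Etv4 (log2 ratio -1.62, SE 0.31, adjusted p = 0.00187), whose signals were all under the filter of 40.9 and whose ratio was -2.26 to -0.79 with the other constants tried, whereas its relative Etv5 was higher at 0.74 (SE 0.17, adjusted p = 0.00512). A second probe set of Etv5 was lower.

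Secreted growth factors leaned the other way, with 3 of 39 higher and 10 lower (25.6%). Without the lysate block, and with the arrays numbered 2 and 3 only, 0 were higher and 7 lower. Vegfb had 264.3, 210.6 and 193.5 in total RNA and 98.8, 70.7 and 78.4 on polysomes (log2 ratio -1.37, SE 0.20, adjusted p = 0.00024), and Tgfa had 209.3, 224.1 and 247.3 against 83.6, 91.0 and 114.9 (log2 ratio -1.20, SE 0.14, adjusted p = 4.65e-05). Vegfa, the main angiogenic factor of the lung, had 1168, 1112 and 1079 against 821.0, 783.7 and 788.8 (log2 ratio -0.49, SE 0.10, adjusted p = 0.0028). Its call was lost without the lysate block.

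Matrix proteins differed by family. Of 37 collagen chains, 10 were lower and 1 higher, and of 10 laminin chains, 5 were higher (2 without the lysate block, 3 with the arrays numbered 2 and 3 only) and 0 lower (1 at an unadjusted limma p under 0.05). Col4a2, of basement membranes, had 2211, 1890 and 1839 in total RNA and 1101, 680.3 and 853.9 on polysomes (log2 ratio -1.19, SE 0.12, adjusted p = 1.32e-05). Lama5, a laminin of the same membranes, had 953.8, 1037 and 830.9 against 1406, 1329 and 1370 (log2 ratio 0.54, SE 0.11, adjusted p = 0.00214). Thus 2 proteins of basement membrane had opposite directions. Col13a1, a transmembrane collagen, was the higher collagen chain (log2 ratio 1.11, SE 0.18, adjusted p = 0.000595).

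On a list of cytoskeletal proteins and motors drawn as large (cytoskeletal giants), genes were lower more often than genes at large. Protein lengths were not used, so a link of the ratio to size was not tested. Of 26 genes on the list, 11 were lower (42.3%) and 2 higher, with a median of -0.34. The higher ones were Macf1 (log2 ratio 0.40) and Dst (0.32). Without the lysate block, without lysate 2 or without lysate 3, 7 were lower. The heavy chains of non-muscle and smooth muscle myosin stood together. Myh9 had 1617, 1823 and 1622 in total RNA and 614.9, 692.2 and 698.7 on polysomes (log2 ratio -1.33, SE 0.15, adjusted p = 4.4e-05). Myh10 was at -1.34 (SE 0.20, adjusted p = 0.00037) and Myh11 at -1.39 (SE 0.19, adjusted p = 0.000154). The regulatory light chain Myl9, a far shorter partner of Myh11 in smooth muscle, had 732.5, 520.8 and 425.6 against 1453, 1111 and 763.4. Heavy and light chain lay on opposite sides (log2 ratio of Myl9 0.97, SE 0.10, adjusted p = 1.91e-05). The smooth muscle protein Tagln had 516.1, 530.0 and 398.5 against 1185, 1459 and 965.3 (log2 ratio 1.30, SE 0.13, adjusted p = 1.36e-05).

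Among antioxidant genes, 16 of 38 were higher (42.1%) and 2 lower, with a median of 0.33, and 10 were higher without the lysate block. The list lay as high before birth, with 16 higher, 0 lower and a median of 0.35 at FD22. At FD19, 19 were higher and 0 lower, with a median of 0.35. Gsta1, a glutathione transferase, had 548.5, 320.1 and 226.8 in total RNA and 1089, 756.5 and 589.7 on polysomes (log2 ratio 1.19, SE 0.14, adjusted p = 6.58e-05). Lysate 1 was highest in both RNAs. Gstp1 had 766.1, 915.8 and 631.7 against 1403, 1620 and 1230 (log2 ratio 0.88, SE 0.11, adjusted p = 7.2e-05). Txn2, the mitochondrial thioredoxin, was lower at -0.93 (SE 0.20, adjusted p = 0.00333). The list and its counts leave out Gpx4, another antioxidant enzyme, which was lower and is given with the selenoproteins. The 2 lower genes do not include Gpx1 either, a glutathione peroxidase with log2 ratios of -0.79 and -0.78 with the other constants tried.

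Selenoproteins, whose mRNAs have a stop codon read as selenocysteine, split into 4 higher and 6 lower of 19. Beside Selenow, Gpx4, which repairs oxidised lipids, had 1222, 1126 and 1276 in total RNA and 560.0, 512.5 and 483.1 on polysomes (log2 ratio -1.21, SE 0.17, adjusted p = 0.000176). Selenos, of the endoplasmic reticulum, had 964.9, 871.7 and 831.2 against 2062, 2190 and 1687 (log2 ratio 1.14, SE 0.14, adjusted p = 8.39e-05).

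Immediate early genes, which respond to stimuli within minutes, had 7 of 46 members higher and 7 lower, near the background in each direction. Gadd45g and Gadd45b, stress sensors, were high: Gadd45g had 188.7, 183.6 and 157.1 in total RNA and 473.4, 554.7 and 469.5 on polysomes (log2 ratio 1.47, SE 0.14, adjusted p = 1.33e-05), and Gadd45b was at 1.31 (SE 0.18, adjusted p = 0.000183). Ier3, a survival gene, had 824.5, 950.2 and 837.6 against 301.9, 259.0 and 216.5 (log2 ratio -1.74, SE 0.15, adjusted p = 6.31e-06). Fos and Egr1 lay at 0.01 (adjusted p = 0.967) and -0.02 (adjusted p = 0.921).

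Of 26 mRNAs known for short reading frames upstream of the main one, 7 were higher and 5 lower, but 4 and 2 without the lysate block. Atf4, the transcription factor of the stress response, had 962.0, 828.0 and 805.3 in total RNA and 586.8, 639.4 and 509.9 on polysomes (log2 ratio -0.58, SE 0.11, adjusted p = 0.00187). Amd1, an enzyme of polyamine synthesis, had 361.9, 335.0 and 342.7 against 168.3, 149.1 and 149.1 (log2 ratio -1.13, SE 0.11, adjusted p = 1.1e-05).

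Protein folding and export were among the other groups with more members higher than lower. Of 39 chaperones and translocon genes of the endoplasmic reticulum, 13 were higher (33.3%) and 3 lower. Dnajc3, a co-chaperone of that compartment, had 165.6, 206.6 and 205.2 in total RNA and 339.9, 371.5 and 367.5 on polysomes (log2 ratio 0.89, SE 0.11, adjusted p = 0.000101). Hspa5, its central chaperone, was at 0.42 (adjusted p = 0.0519). Of 14 heat shock proteins, 6 were higher and 2 lower, and 5 and 1 without the lysate block. The small heat shock protein Hspb1 had 1898, 1932 and 2154 against 3081, 3204 and 2901 (log2 ratio 0.62, SE 0.09, adjusted p = 0.000376), and Hspa4, a large nucleotide exchange factor, was lower at -0.91 (SE 0.18, adjusted p = 0.00253).

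Cell cycle genes stayed near the background, with 9 of 64 higher and 6 lower (14 and 4 after median centring), but 2 partners in the same step lay at opposite ends. Cdk1, the kinase that drives mitosis, had 219.8, 227.6 and 284.4 in total RNA and 482.7, 450.9 and 572.9 on polysomes (log2 ratio 1.03, SE 0.10, adjusted p = 1.45e-05). Cdc25b, a phosphatase that activates it, had 690.1, 562.8 and 726.1 against 150.1, 168.1 and 176.1 (log2 ratio -1.96, SE 0.13, adjusted p = 7e-07). Neither gene's arrays overlapped. Of 51 splicing factors, 13 were higher and 6 lower, and 9 and 3 without the lysate block. The highest was U2af1, which reads the end of introns, with 791.4, 774.5 and 807.8 against 1668, 1932 and 1658 (log2 ratio 1.14, SE 0.10, adjusted p = 6.03e-06).

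Enzymes and regulators of cholesterol and fatty acid synthesis gave 8 higher (20%) and 5 lower (12.5%) of 40, and 5 and 3 without the lysate block. These shares were near those of all genes (16.8% and 12.8%). Fdps, which makes farnesyl diphosphate, had 437.5, 380.8 and 412.2 in total RNA and 827.0, 639.6 and 784.3 on polysomes (log2 ratio 0.86, SE 0.10, adjusted p = 6.4e-05). Chpt1, which makes phosphatidylcholine, had 148.5, 159.8 and 154.8 against 65.7, 57.2 and 44.1 (log2 ratio -1.40, SE 0.18, adjusted p = 0.000119). Of 16 imprinted genes of fetal growth, 3 were higher and 5 lower (3 lower without the lysate block). Igf2, the fetal growth factor, had 1612, 1287 and 1440 against 1133, 822.0 and 814.9 (log2 ratio -0.66, SE 0.10, adjusted p = 0.000344), a shift smaller than that of its neighbour H19. Of the vacuolar proton pump, 6 of 21 subunits were higher and 2 lower (9 and 1 after median centring), with Atp6v1e1 at 347.4, 376.1 and 394.3 against 771.5, 1123 and 1064 (log2 ratio 1.37, SE 0.12, adjusted p = 5.3e-06).

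**Figure D3:**
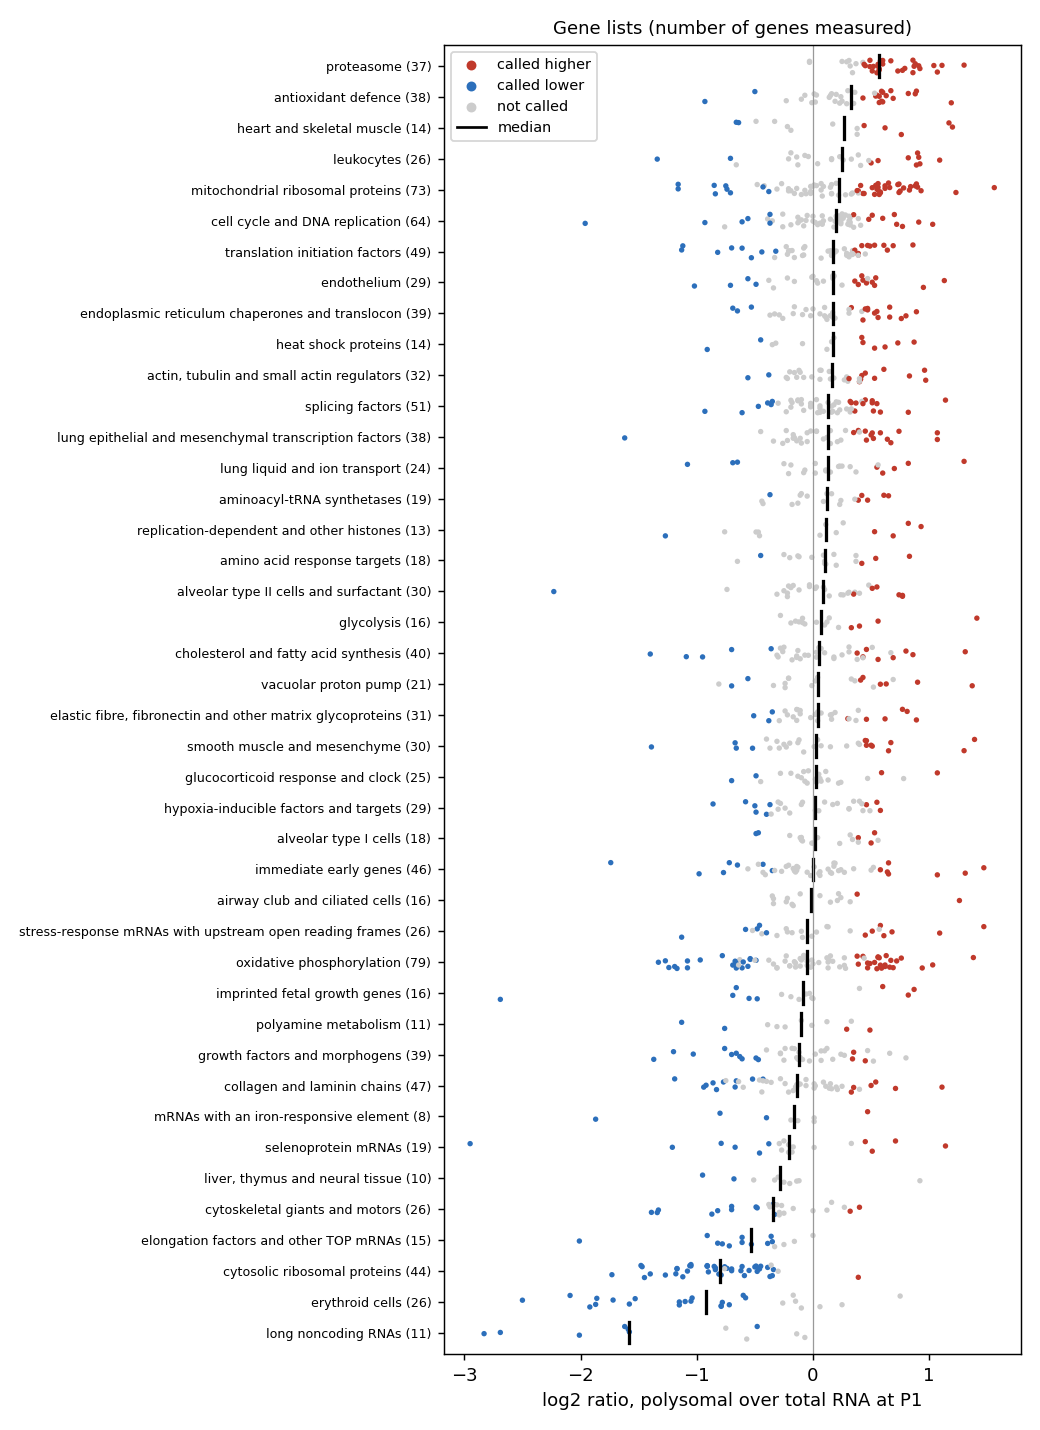
Log2 ratio at P1 (horizontal axis) of each measured gene of 42 lists, ordered by median (black bar), with red for genes called higher, blue for lower and grey for not called. Noncoding RNAs (median -1.58), erythroid genes (-0.92) and cytosolic ribosomal proteins (-0.80) lie at the bottom, and the proteasome (0.57) at the top.

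Some genes had probe sets that went opposite ways. Of 3273 genes with at least 2 kept probe sets, 481 had at least 2 called, and in 38 of these 1 was higher and another lower. In 15 of the 38 both probe sets had a mean signal of at least 100 in the higher group. For Tpm3, a tropomyosin with several splice forms, 1 probe set had 594.9, 640.5 and 488.1 in total RNA and 961.7, 1833 and 1493 on polysomes (log2 ratio 1.27, SE 0.17, adjusted p = 0.000182). Another had 171.9, 195.1 and 254.6 against 66.6, 78.7 and 85.7 (log2 ratio -1.35, SE 0.27, adjusted p = 0.00237). Tpm1, its relative, showed the same split, at 0.91 and -1.10. Cops3, of the COP9 signalosome, gave 0.47 and -1.95, and Csnk2a1, a casein kinase subunit, gave 0.64 and -1.15. Which transcript or end of a transcript each probe set binds was not determined here. The lists use the brighter probe set of a gene, which for Tpm3 was yet another at 0.06.

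**Figure D4:**
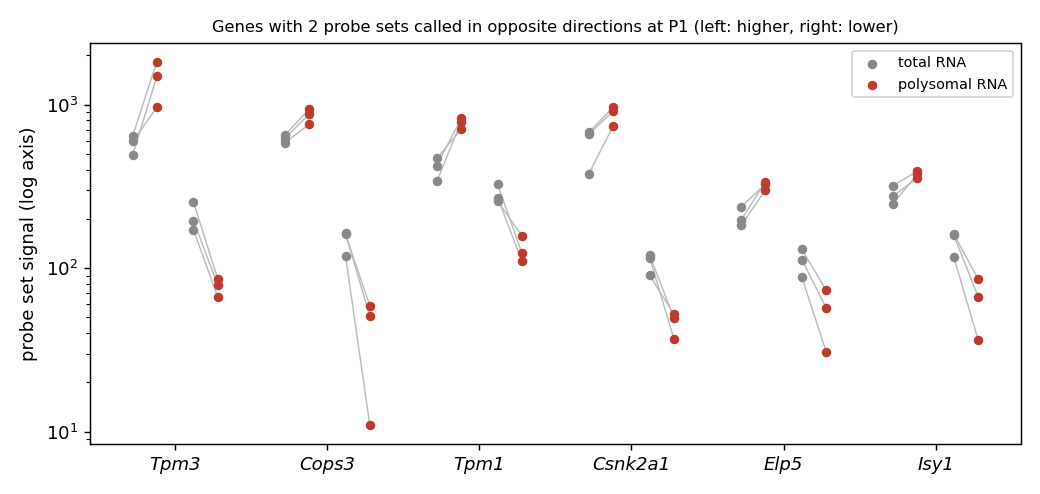
Probe set signal (log axis) at P1 of 6 genes with a probe set called higher (left pair of columns) and another called lower (right pair), in total RNA (grey) and polysomal RNA (red), with lines joining a lysate. For Tpm3 the log2 ratios were 1.27 and -1.35, for Cops3 0.47 and -1.95.

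Most of the newborn pattern was present before birth. Of the probe sets higher at P1, 1579 were also higher at FD22, which is 61.8% of the P1 list and 67.2% of the FD22 list. Of those lower at P1, 2070 were lower at FD22 (59.1% and 62.6%), and 19 probe sets had opposite calls. With FD19 the shared numbers were 1596 higher (62.5% and 51.5%) and 1873 lower (53.5% and 50.8%), with 63 opposite. At all 3 stages 1298 were higher and 1546 lower. Total and polysomal arrays of the stages are separate samples, and across probe sets the P1 ratio correlated with r = 0.778 with that at FD22 and 0.689 with that at FD19.

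A few mRNAs had a lower ratio of polysomal over total RNA at P1 than at FD22. The difference of the 2 ratios passed for 17 probe sets lower at P1 (0.0785%) and 0 higher (0%). At an unadjusted limma p under 0.05 there were 967 lower and 684 higher. The 17 numbered 9, 0 and 3 without P1 lysates 1, 2 and 3, and 6, 0 and 70 without FD22 lysates 1, 2 and 3. Without the lysate block 3 passed.

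Insig1, which retains the sterol sensor in the endoplasmic reticulum, is among them. At P1 it had 802.7, 542.6 and 705.7 in total RNA and 371.9, 253.4 and 331.8 on polysomes. At FD22 it had 998.9, 907.1 and 804.6 in total RNA, and 1033 and 1012 on polysomes in lysates 1 and 2, with lysate 3 just below its total signal. The polysomal share was near that of the average transcript before birth and 2.12-fold lower at P1, with ratios of -1.10, -1.08 and -1.08 in the 3 lysates. The difference between the stages was -1.15 (SE 0.15, adjusted p = 0.0088).

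Ccnyl1, a cyclin-like protein, rose in total RNA from 173.6, 207.2 and 145.1 at FD22 to 383.2, 416.2 and 356.0 at P1, while its polysomal signals were 186.7, 200.3 and 149.0 and then 141.2, 164.7 and 156.8. The total level was higher in every P1 array and the polysomal level was not, and the ratios differed by -1.32 (SE 0.17, adjusted p = 0.00782). Arpc5l, a subunit of the Arp2/3 complex that branches actin, had polysomal signals of 600.1, 589.4 and 466.9 at FD22 and 225.1, 227.4 and 199.3 at P1. Its total signals overlapped between the stages, at 479.4, 533.8 and 483.0 and at 433.2, 563.7 and 519.7, and the ratios differed by -1.33 (SE 0.17, adjusted p = 0.00782). So in Ccnyl1 the total signals of the stages were apart and in Arpc5l the polysomal ones.

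Ppp1r2, an inhibitor of protein phosphatase 1, turned from higher at FD22 (0.75, SE 0.17) to lower at P1 (-0.87, SE 0.17), a difference of -1.63 (SE 0.23, adjusted p = 0.0171). Tmem9b, a lysosomal membrane protein, differed by -1.31 (SE 0.19, adjusted p = 0.0171). Crebzf, a transcription factor, differed by -1.26 (SE 0.17, adjusted p = 0.0122). Sec11c, of the signal peptidase, differed by -1.18 (SE 0.20, adjusted p = 0.0495), and at P1 itself its ratio of -0.33 (adjusted p = 0.0926) did not pass. Amd1 differed by -0.90 (SE 0.15, adjusted p = 0.0495).

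**Figure D5:**
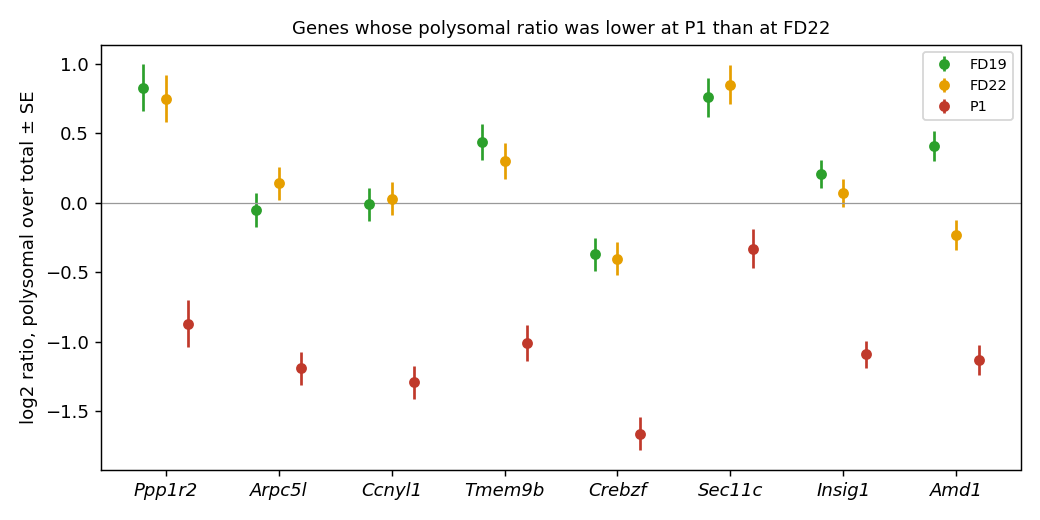
Log2 ratio of polysomal over total RNA with limma's SE at FD19 (green), FD22 (orange) and P1 (red) for 8 genes whose ratio was lower at P1 than at FD22. At P1 all 8 lie below 0, from -0.33 (Sec11c) to -1.66 (Crebzf), while at FD22 they range from -0.40 (Crebzf) to 0.85 (Sec11c).

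Against FD19, 185 probe sets had a lower ratio at P1 (0.854%) and 44 a higher one (0.203%), 1.06% in all. Lower ratios numbered 29, 37 and 63 without P1 lysates 1, 2 and 3 and 17, 69 and 35 without FD19 lysates 1, 2 and 3, and higher ones 1, 1 and 24 and 0, 10 and 2. Without the lysate block 24 were lower and 1 higher, and with the arrays numbered 2 and 3 only, 4 and 0.

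The ratio of the erythroid Alas2 fell from -0.48 at FD19 to -1.87 at P1, a difference of -1.40 (SE 0.15, adjusted p = 0.0014). At FD19 it had 2000, 1580 and 1246 in total RNA and 1259, 1258 and 918.6 on polysomes. Its mRNA carries an iron-responsive element, and of 8 measured mRNAs with one, 3 were lower at P1 (37.5%, against 12.8% of all genes) and 1 higher. With the arrays numbered 2 and 3 only, 2 were lower. The counts were similar before birth, with 2 lower and 1 higher at FD22 and 3 and 1 at FD19. Alas2 is also on the erythroid list, and the part of the element in its fall was not tested. Pla2g1b was dim at FD19, with 73.4, 96.7 and 104.0 in total RNA and 51.9, 50.8 and 155.8 on polysomes, and its ratios differed by -1.98 (SE 0.38, adjusted p = 0.0258). Sftpa1 was higher on polysomes at FD19 and did not pass at P1. At FD19 it had 705.7, 819.1 and 928.7 against 1385, 1600 and 1911, a log2 ratio of 0.99, and its difference was -0.73 (SE 0.14, adjusted p = 0.0247). Fn1, the fibronectin of the matrix, went the other way, from -1.11 at FD19 to -0.35 at P1, a difference of 0.75 (SE 0.13, adjusted p = 0.0204).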

How the data were processed

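Signals are linear intensity values per probe set of the Affymetrix Rat Genome 230 2.0 array, which the authors made with GCOS 1.4, per the submitters' processing notes. The algorithm is not given in the sources used here. The deposited intensity columns share a 2% trimmed mean. Of 31099 probe sets, 57 controls were left out, and 21655 with a signal above 40.9 (the 40th percentile) in at least 3 of 18 arrays were kept. Values were analysed as log2(signal + 5.6), the constant being the 10th percentile, with limma 3.58.1 in R 4.3.3 (lmFit, eBayes with a trend). The fit held all 18 arrays, a term for each of 9 lysates and a polysomal minus total term per stage, with 6 residual degrees of freedom. Calls are at a Benjamini-Hochberg adjusted p under 0.05. The script was tested on simulated data.

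The 2 RNAs of a lysate are paired, since per the labels' design text both came from 1 lysate. They were extracted differently per the labels' protocols (Trizol for total, guanidine and phenol for polysomal RNA), so RNA type and extraction cannot be told apart. Within each of the 9 lysates, the 2 arrays deviated together from their group means (9 of 9, r = 0.185 to 0.483, at P1 0.233 to 0.455), against -0.36 to 0.147 for other pairs within a stage. This is a weak check of pairing. Deviations from a group's own mean cancel out, which lowers r for the other pairs, and the arrays numbered 1 stand apart in every group. At FD19 the pairs across lysates 2 and 3 (0.147 and 0.110) were near those within them (0.189 and 0.196). A number shared across stages names no shared litter and was not used.

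Where a gene had several kept probe sets, the brightest by mean log2 value stands for it. The platform annotation ties 20826 probe sets to 1 gene, 436 to several and 9780 to none. Of the 20826, 20758 matched RefSeq by gene identifier, and COX2 did not. The lists and members were chosen with earlier results of these data known. Genes were named by rule: the 12 highest and 12 lowest ratios among called genes with 1 direction in all lysates, no overlap and a mean signal of at least 100, up to 3 called genes per list and direction, genes of the surfactant, sodium channel and growth factor groups, the 6 highest and 6 lowest called stage differences (up to 4 by p where none passed), and up to 6 genes with opposite probe sets. A further part of the rule, by protein length, could not be applied. Ager, Scgb1a1, Pecam1, Rpl39, Rps6, Eef1b2, Hba-a3, Hbb, Fos, Egr1, Hspa5 and Psmc3ip were named after their values were seen. The window around transcript starts was likewise chosen late. Alternatives were another constant, filter or scaling, no lysate block, no trend, fewer arrays, and each lysate left out. The number of arrays limits the precision. Further software was Python 3.11.15, pandas 2.3.3, numpy 2.4.6 and matplotlib 3.10.9.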

Additional observations from a re-analysis of the deposited data

Results flagged for a closer look

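Groups of 3 arrays are too small for the test of outlying samples that was used here, so the results below were picked out because the log2 ratio of polysomal over total RNA differed between P1 and an earlier stage, by limma's test of the difference (P1 minus the earlier stage, adjusted over 21655 probe sets). Against FD22, the differences were -1.63 for Ppp1r2, -1.33 for Arpc5l, -1.32 for Ccnyl1, -1.31 for Tmem9b, -1.26 for Crebzf, -1.18 for Sec11c, -1.15 for Insig1 and -0.90 for Amd1, with adjusted p from 0.00782 to 0.0495.

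The same 8 genes differed from FD19 too, by -1.70 (Ppp1r2), -1.14 (Arpc5l), -1.28 (Ccnyl1), -1.45 (Tmem9b), -1.29 (Crebzf), -1.10 (Sec11c), -1.29 (Insig1) and -1.54 (Amd1). The P1 arrays enter both differences. Further genes with a lower ratio at P1 than at FD19 were Pla2g1b (-1.98), the proton pump subunit Atp6v1c2 (-1.94, from 2.63 to 0.69), Tada2b (-1.73), Pla2g12a (-1.72), Tatdn2 (-1.57), Tgfa (-1.55), Ier3 (-1.40), Alas2 (-1.40), Slc25a39 (-0.89) and Sftpa1 (-0.73). A higher ratio at P1 than at FD19 was found for Bpifa1, a secreted airway protein (1.81, from -0.55 to 1.26), Nup107 of the nuclear pore (1.76), Mrpl42 (1.42), Srek1ip1 (1.31), the cartilage collagen Col2a1 (1.30), Tpr of the nuclear pore (1.25), Taldo1 (1.11) and Fn1 (0.75). Adjusted p against FD19 ran from 0.00127 (Amd1) to 0.0499 (Nup107). In these 2 stage comparisons the number of calls moved with single lysates, as given above.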

How the results depend on the processing

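No named gene reversed: of 3016 values of 233 genes under the alternatives, 2733 kept direction and side of the threshold, 270 lost the call and 13 gained it. This is a weak check, since 222 of the 233 were called in the main fit. Many were named for their large ratios, and the alternatives use the same arrays. Of the 6059 calls at P1, 3994 were also called, in the same direction, without the replicate block, which gave 1760 higher and 2243 lower probe sets (arrays numbered 2 and 3 only: 2300 lower). Leaving out a P1 lysate gave 1549 to 1761 higher and 2151 to 2198 lower. Without the replicate block 10 antioxidant genes were higher and 7 cytoskeletal giants lower. It also moved the endothelial, laminin, growth factor, type II, lipid, splicing, imprinted, heat shock and upstream reading frame lists, as given with them. With a lysate left out, lower cytoskeletal giants numbered 7 to 9, oligopyrimidine mRNAs 7 to 12, oxidative phosphorylation 10 to 18 lower and 11 to 23 higher, ribosomal proteins 32 to 41, erythroid genes 16 to 19, noncoding RNAs 6 to 7, and the higher proteasome genes 21 to 23, mitochondrial ribosome 22 to 26 and antioxidant genes 12 to 13.

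The stage differences were the least stable. P1 against FD22 gave 8 lower probe sets with no filter, 36 (and 2 higher) with the filter at the 60th percentile, 3 without the replicate block, 0 with no variance trend, 1 with arrays 2 and 3 only, 3 with the arrays of both stages alone, and 0 to 70 lower and 0 to 1 higher with a lysate left out. P1 against FD19 gave 26 higher with no filter, 107 higher and 280 lower at the 60th percentile, 1 and 24 without the replicate block, 0 and 13 with no variance trend, 0 and 4 with arrays 2 and 3 only, 103 and 287 with both stages alone, and 0 to 24 higher and 17 to 69 lower with a lysate left out. The cause was not tested. Taking the median over a gene's probe sets gave list medians of -0.83 for ribosomal proteins and 0.56 for the proteasome. The planned grouping by protein length was not run, because no protein sequences were used here.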
